A study of Mus musculus with 6 samples.

Results

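The 10 genes described here encode proteins that bind actin: fascin (Fscn1), the thymosins Tmsb4x and Tmsb10, profilin (Pfn1), cofilin (Cfl1), the alpha-actinins Actn1 and Actn4, ezrin (Ezr), moesin (Msn) and transgelin 2 (Tagln2). They are 10 of the 25215 genes in the deposited values, and all 10 were among the 11264 genes that could be tested. They were chosen on measured values of these tumors, because Fscn1 and Tmsb4x were known to be higher in R499. For that reason the differences between R499 and the other conditions are given with their errors and without p-values. Counts of members called in those contrasts are a record of the fit and no test. The anti-PD1 contrast and the comparisons with other actin genes were tested, and everything within tumors is a description. The gene lists were also chosen with earlier results of these data known, so their p-values do not rest on an independent choice.

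Cells came from tumors of 6 C57BL/6 mice, with 2 mice in each of 3 conditions, 50000 cells of a melanoma line having been injected under the skin. B16, a pigmented mouse melanoma line (B16-F10), was grown without treatment (B16) or with 200 μg of anti-PD1, an antibody against an inhibitory receptor of T cells, on days 5, 8 and 11 (B16PD1). R499 (Res499) was grown without treatment; it is a single line made from a B16 tumor that had come back after radiation and anti-CTLA4, so what belongs to relapse after treatment and what belongs to this 1 derivation cannot be told apart. All tumors were taken on day 15, CD45-negative cells were sorted to leave out leukocytes, and full-length transcripts were sequenced by Smart-seq. The mice were injected on both flanks, and the age and sex of the mice are not given in the sources used here.

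After cells with 1000 or fewer genes, or with 10% or more of their expression from mitochondrial genes, were left out, 507 of 602 cells remained, 75 to 91 per tumor. Expression is in TPM, a measure of transcripts that divides by transcript length and by the total of a cell, so that levels can be compared between genes but the number of reads is unknown. In its place stands the count of genes detected (TPM above 0) in a cell, whose median per tumor was 3141 to 3838.5 and was lowest in R499_015. Tumors are named by the condition and number in the deposited columns. No well position was shared among the 602 cells. All 7 melanocyte lineage markers were detected, and each retained cell had at least 1 of them. Among the 16 immune markers 3 were at 0 in all retained cells, and the summed level of the list was 258 TPM in B16_007 and 280 TPM in B16PD1_002 against 7.35 to 31.9 TPM in the other 4 tumors. The dendritic list had 6 of 7 markers at 0, and all 6 keratinocyte markers were at 0. Of 9 endothelial markers 5 were at 0, including Cdh5, Kdr and Tek, and the summed level of the list was 20.6 and 33.2 TPM in the R499 tumors and 44.9 to 103 TPM in the others, so it moved with R499 in the direction of Actn1, and its part in the results was not tested. The summed levels of the fibroblast list (0 to 3.01 TPM) and the mural list (0.291 to 4.27 TPM) overlapped between R499 and the others. In the sum over a tumor, fewer cells that express a gene and less RNA per cell cannot be told apart, which is why shares of cells and levels within cells are given side by side.

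Actin filaments grow by the addition of monomers, and a large pool of monomers is held back by thymosins and handed to filament ends by profilin. Cofilin severs and takes apart old filaments, fascin packs filaments into the tight parallel bundles of filopodia and invasive protrusions, and alpha-actinins join them into looser networks. Ezrin and moesin tie filaments to the plasma membrane, and transgelins bind along filaments. In melanoma and other tumors these proteins are studied for their part in cell shape and movement.

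Fscn1 (ENSMUSG00000029581) lies on chromosome 5 from 142960343 to 142973185 on the plus strand, and Tmsb4x (ENSMUSG00000049775) lies on chromosome X from 167207093 to 167209315 on the minus strand, in the annotation of GRCm38, the assembly also called mm10. Their promoters are shown because these are the members whose levels set R499 apart. The bases are from RefSeq on GRCm38.p6, written in the direction of transcription, and end where the first annotated exon begins. The Fscn1 window is chr5:142960105-142960342 on the plus strand and the Tmsb4x window is chrX:167209316-167209468 on the minus strand. Capitals mark a cyclic AMP response element (TGACGTCA) and a TATA box (TATAAA).
Fscn1: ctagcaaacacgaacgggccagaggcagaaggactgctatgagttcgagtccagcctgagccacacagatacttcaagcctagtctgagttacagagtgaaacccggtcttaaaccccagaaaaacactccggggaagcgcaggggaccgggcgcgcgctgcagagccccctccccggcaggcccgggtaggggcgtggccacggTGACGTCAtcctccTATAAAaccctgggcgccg
Tmsb4x: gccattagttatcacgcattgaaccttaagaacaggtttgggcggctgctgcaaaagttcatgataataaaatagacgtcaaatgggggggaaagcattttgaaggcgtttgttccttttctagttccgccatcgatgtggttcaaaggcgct

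The cyclic AMP response element of Fscn1 lay 45 to 38 bases before the RefSeq start and its TATA box lay 31 to 26 bases before it. Both motifs were looked for after the sequence had been seen. Over windows of 250 bases before to 50 bases after the start, on both strands, 1 of 12 windows of the 10 members held the first motif and 1 of 12 held the second, in both cases that of Fscn1. Of 32851 RefSeq promoters of the same length, 1.79% held the first and 13.6% the second. The CArG box, the site of serum response factor, which controls many actin genes, was in 0 of the 12 windows against 1.63% of all promoters. A match is a description and not a binding site, and a missing match says only that these letters are not in this window.

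The members spanned the whole range of expression. Pfn1 had a mean of 2271 TPM over the retained cells and was 65th of the 11264 genes by this level, Tmsb10 had 1624 TPM and Cfl1 had 845 TPM. Cfl1 was detected in 507 of 507 cells, Pfn1 in 505 and Tmsb10 in 500. Msn, at 89.4 TPM, was found in 469 cells, Actn4, at 60.1 TPM, in 304 cells, and Ezr, at 19.1 TPM, in 257 cells. Tmsb4x had a mean of 154 TPM but was found in only 239 cells (47.1%). Fscn1 (14.3 TPM, 81 cells), Actn1 (5.78 TPM, 87 cells) and Tagln2 (6.03 TPM, 14 cells) were at 0 in most cells.

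In the order of tumor means of log2(TPM + 1), from Pfn1 through Tmsb10, Cfl1, Msn, Tmsb4x, Actn4, Ezr, Fscn1 and Actn1 to Tagln2, most neighbors kept their order in 6 of 6 tumors. The exceptions were Tmsb4x over Actn4, with a mean difference of 0.05 ± 1.36 (SD, n = 6 tumors), and Fscn1 over Actn1, with 0.14 ± 0.99 (SD, n = 6). In both pairs the first gene was the higher one in 2 of 6 tumors. The members also differed in how steady they were between tumors. The range of the 6 tumor means was 0.31 for Cfl1, 0.31 for Pfn1 and 0.32 for Tmsb10, but 1.68 for Fscn1 and 2.91 for Tmsb4x.

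**Figure D1:**
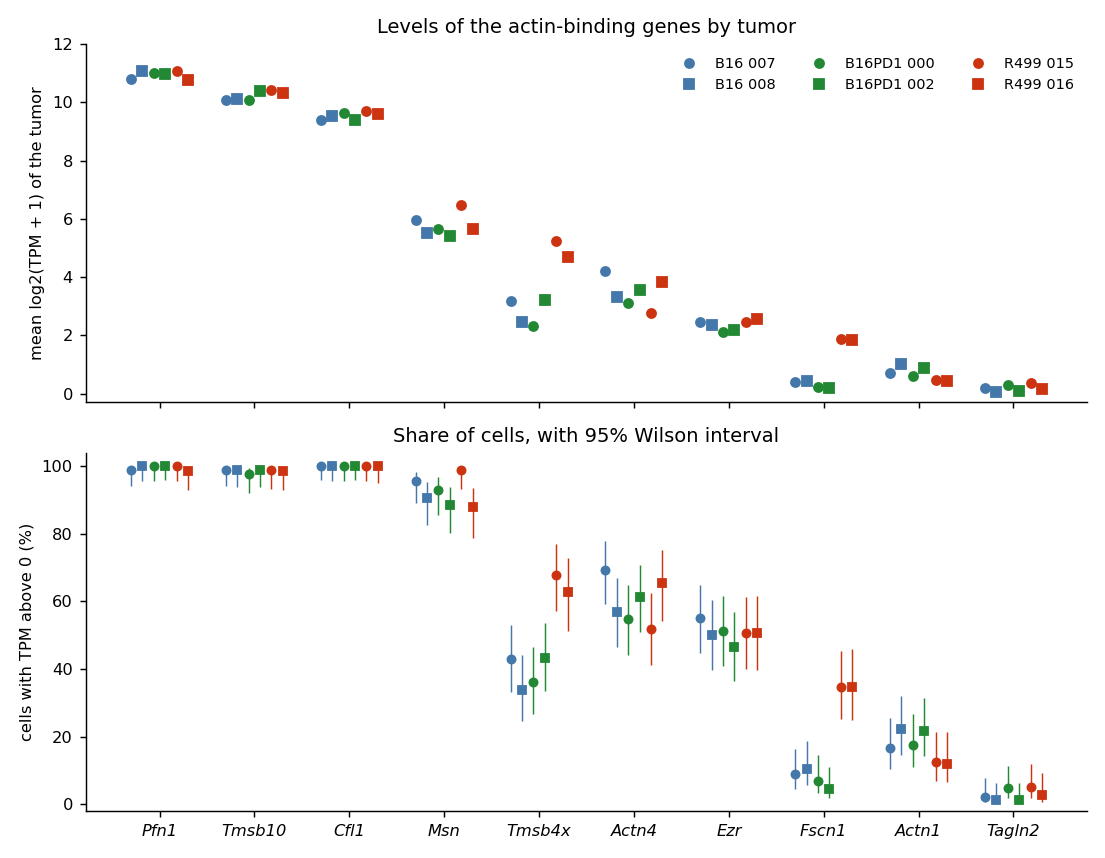
The upper panel shows the mean log2(TPM + 1) over the retained cells of each tumor and the lower panel the percentage of cells with TPM above 0, with 95% Wilson intervals, for the 10 genes in the order of their level; color marks the condition and the symbol marks the tumor. Fscn1 and Tmsb4x are the members for which both R499 tumors lie above the other 4 in each panel, and Pfn1, Tmsb10 and Cfl1 are near 100% of cells in every tumor.

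Fascin transcripts were found in a minority of R499 cells and in few cells elsewhere. Fscn1 was above 0 in 28 of 81 cells (34.6%) of R499_015 and in 26 of 75 cells (34.7%) of R499_016. In the B16 tumors it was above 0 in 8 of 91 cells (8.79%) and 9 of 86 cells (10.5%), and in the B16PD1 tumors in 6 of 86 cells (6.98%) and 4 of 88 cells (4.55%). The 95% Wilson intervals, which cover counting error over cells only, began at 24.9% in R499 and ended at 18.7% at most in the other 4 tumors. Fscn1 was chosen for this difference, so the intervals describe precision and are no test.

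Fscn1 averaged 1.89 and 1.84 on the log2(TPM + 1) scale in the R499 tumors, compared with 0.38 and 0.44 in the B16 tumors and 0.22 and 0.21 in the B16PD1 tumors. Both R499 tumors were above the other 4, and the 2 tumors of a condition lay close together. The mean was 1.86 ± 0.036 (SD, n = 2) in R499 and 0.41 ± 0.041 (SD, n = 2) in B16. In TPM, the tumor means were 43.9 and 37.9 in R499 and 0.969 to 3.64 in the other 4 tumors. Among the cells above 0, mean log2(TPM + 1) was 5.38 ± 0.12 (SD, n = 2) in R499, 4.27 ± 0.094 (SD, n = 2) in B16 and 3.81 ± 1.02 (SD, n = 2) in B16PD1, so both the share of cells and the level within them were higher in R499. The highest cell had 1124 TPM, in R499_015, and gave 31.6% of the sum of Fscn1 in that tumor.

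Tmsb4x, the main monomer-holding thymosin of many cell types, was also higher in both R499 tumors than in the other 4, by share of cells and by mean log2(TPM + 1). It was above 0 in 67.9% and 62.7% of the cells of the R499 tumors, in 42.9% and 33.7% of the cells of the B16 tumors, and in 31 of 86 cells and 43.2% of the cells of the B16PD1 tumors. Averaged over all cells on the log2(TPM + 1) scale it reached 5.23 and 4.68 in R499, compared with 3.17 and 2.47 in B16 and with 2.32 and 3.21 in B16PD1. Both R499 tumors were above the other 4, and the B16 and B16PD1 tumors overlapped. Among the cells above 0 the level of Tmsb4x was 7.58 ± 0.16 (SD, n = 2) in R499, 7.36 ± 0.045 (SD, n = 2) in B16 and 6.94 ± 0.71 (SD, n = 2) in B16PD1. The gap between R499 and B16 in cells that had Tmsb4x was thus 0.22 on this scale, against 2.13 over all cells.

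Mean TPM of Tmsb4x gave another picture, because it follows the highest cells. The R499 tumors had 227 and 157, the B16 tumors 249 and 79.4, and the B16PD1 tumors 55.2 and 159, so the conditions overlapped. One cell of B16_007 had 12509 TPM, which was 55.2% of the tumor's sum, and 10 immune and dendritic markers were above 0 in it. The highest cell of B16PD1_002 had 4997 TPM and 7 such markers above 0. Without the 15 retained cells in which 2 or more of these markers were above 0, an exclusion chosen after the data were seen, mean TPM of Tmsb4x was 228 and 151 in the R499 tumors, 114 and 78.0 in the B16 tumors, and 55.9 and 100.02 in the B16PD1 tumors. Both R499 tumors were then above the other 4. The shares of cells without these 15 were 67.5% and 63.0% in R499 and 31.3% to 41.7% elsewhere for Tmsb4x, and 33.8% and 35.6% in R499 and 3.57% to 10.8% elsewhere for Fscn1. Of the 54 Fscn1-positive R499 cells, 1 was among the cells left out.

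**Figure D2:**
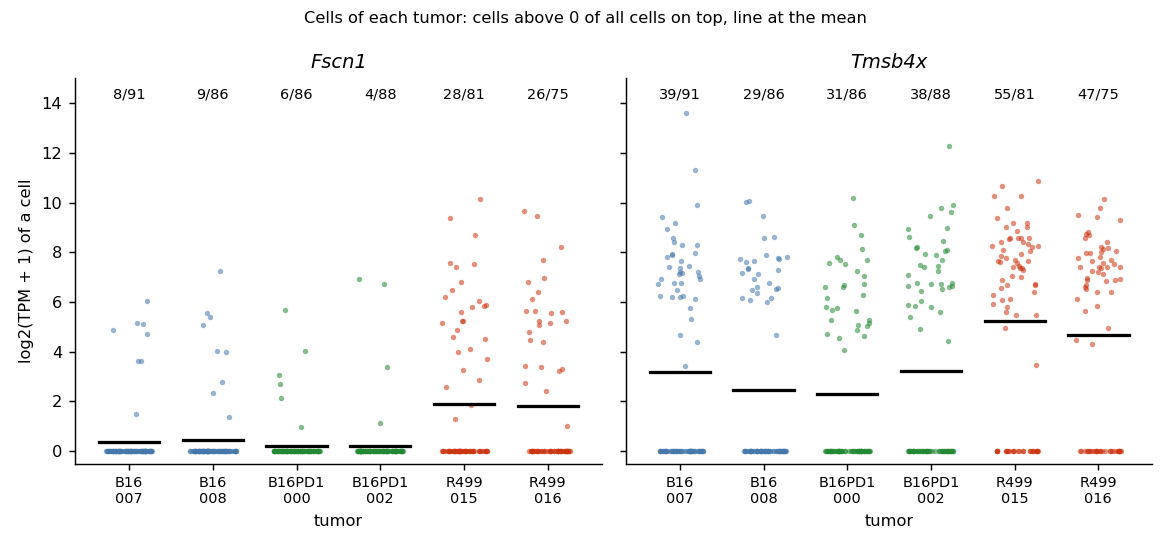
Each point is a cell, with its tumor on the horizontal axis and log2(TPM + 1) on the vertical axis; the line is the mean of the tumor and the numbers on top are cells above 0 of all retained cells. In R499 more cells leave the line at 0 for both genes (28 of 81 and 26 of 75 for Fscn1), and the 2 highest points for Tmsb4x lie in B16_007 and B16PD1_002.

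A cell with more genes detected is more likely to show any gene, so the shares were also read at matched numbers of genes. Across cells of a tumor, Fscn1 correlated with the number of genes detected with a mean Spearman coefficient of 0.27 (range 0.14 to 0.44 over 6 tumors) and Tmsb4x at 0.22 (0.029 to 0.46). Among cells with 4625 to 6816 genes, Fscn1 was above 0 in 21 of 33 R499 cells (63.6%) and in 16 of 94 cells of the other tumors (17.0%). Among cells with 1007 to 2625 genes it was above 0 in 5 of 51 (9.80%) and 2 of 76 cells (2.63%), whose intervals overlapped. Each bin pools cells of several tumors, so its interval covers counting error over cells only and is no test. For Tmsb4x the shares were 90.9% and 56.4% in the first bin named and 45.1% and 15.8% in the second. With the cells weighted so that each tumor had the same spread over 4 such bins, Fscn1 was above 0 in 37.8% and 37.4% of the R499 cells and in 4.30% to 11.5% of the others, and Tmsb4x in 72.0% and 63.4% and in 32.4% to 42.0%.

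**Figure D3:**
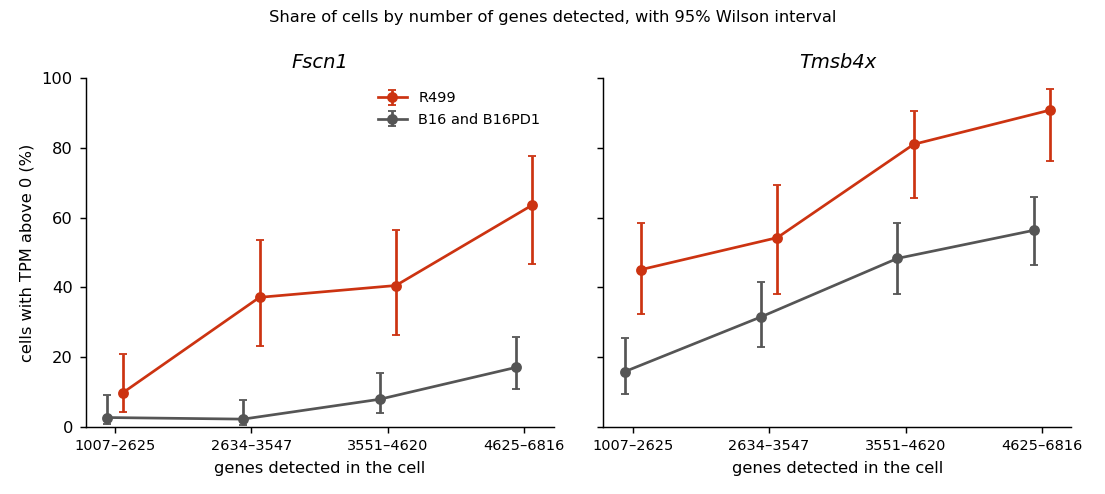
The percentage of cells with TPM above 0, with 95% Wilson intervals for counting error, is plotted against 4 bins of the number of genes detected in a cell, for Fscn1 and Tmsb4x; cells of the 2 R499 tumors are in red and cells of the other 4 tumors in gray. In each bin the R499 share is the higher one, from 9.80% to 63.6% against 2.17% to 17.0% for Fscn1.

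The thymosin Tmsb10, which binds monomers like Tmsb4x, was near its full share of cells in every tumor (97.7% to 98.9%). Its level on the log2(TPM + 1) scale was 10.40 and 10.31 in the R499 tumors, 10.08 and 10.12 in the B16 tumors, and 10.08 and 10.37 in the B16PD1 tumors. R499 was above B16 in both tumors but overlapped B16PD1, and the difference from B16 was 0.25 ± 0.22 (SE). Profilin, Pfn1, had 11.06 and 10.77 in the R499 tumors, 10.80 and 11.08 in the B16 tumors, and 11.01 and 10.95 in the B16PD1 tumors, and all conditions overlapped. Cofilin, Cfl1, had 9.71 and 9.60 in the R499 tumors, 9.40 and 9.52 in the B16 tumors, and 9.63 and 9.41 in the B16PD1 tumors, with R499 above B16 and overlapping B16PD1. The difference of Cfl1 from B16 was 0.20 ± 0.23 (SE). The share of all genes with R499 above B16 in this way was not computed. Transcripts of near-identical copies could draw reads from these genes: the annotation holds 8 for Tmsb10 and 5 for Cfl1, of which 1 had a row, at 0 TPM in all retained cells, so their levels are uncertain to that extent.

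Of the alpha-actinins, Actn1 separated the R499 tumors from the other 4 and Actn4 did not. It was above 0 in 10 of 81 and 9 of 75 R499 cells, 16.5% and 22.1% of the B16 cells, and 17.4% and 21.6% of the B16PD1 cells. Its level on the log2(TPM + 1) scale was 0.47 and 0.44 in the R499 tumors, 0.71 and 1.01 in the B16 tumors, and 0.62 and 0.88 in the B16PD1 tumors, so both R499 tumors were below the other 4. The Wilson intervals of all 6 shares overlapped, however. Actn4 was above 0 in 51.9% and 65.3% of the R499 cells and in 54.7% to 69.2% of the others, and the R499 tumors themselves lay 1.05 apart, at 2.77 and 3.83.

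The membrane linker Ezr was above 0 in 46.6% to 54.9% of cells in all 6 tumors. Its level on the same scale was 2.46 and 2.54 in the R499 tumors, 2.47 and 2.35 in the B16 tumors, and 2.10 and 2.19 in the B16PD1 tumors. Msn had 6.46 and 5.66 in the R499 tumors, 5.96 and 5.50 in the B16 tumors, and 5.64 and 5.42 in the B16PD1 tumors, so R499_015 was the highest tumor and R499_016 lay among the others. Tagln2 was above 0 in 1 to 4 cells of each tumor, too few to compare.

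In the linear model over the 6 tumors, fitted with limma to all 11264 genes at once, Fscn1 was higher in R499 by 1.45 ± 0.19 (SE) against B16 and by 1.65 ± 0.19 (SE) against B16PD1 on the log2(TPM + 1) scale. The differences of Tmsb4x were 2.13 ± 0.39 (SE) and 2.19 ± 0.39 (SE). These were the 11th and 6th largest positive differences of all genes for Fscn1 and the 3rd in both contrasts for Tmsb4x. R499 minus B16 and R499 minus B16PD1 share the R499 tumors, so they are not independent of each other. For Actn1 the differences were -0.41 ± 0.18 (SE) and -0.29 ± 0.18 (SE). The others were at most 0.53 in size, the value of Msn against B16PD1, with an SE of 0.35. Actn4 had -0.46 ± 0.41 (SE) against B16 and -0.03 ± 0.41 (SE) against B16PD1. Of the 10 members, 7 differences were positive in R499 minus B16 and 7 in R499 minus B16PD1, with a median of 0.16 and 0.13, where the median over all genes tested was -0.07 and -0.09. Over all genes tested, 35.8% and 32.75% of the differences were positive. The members were selected on these contrasts, so their count is no test. The signs of Pfn1, Actn4, Ezr and Msn against B16, and of Tmsb10, Pfn1, Cfl1, Actn4 and Tagln2 against B16PD1, changed in at least 1 alternative analysis. Those of Fscn1, Tmsb4x and Actn1 held in the 15 alternatives that could change a difference in at least 1 contrast. Leaving out a tumor of the condition that a contrast does not use leaves that contrast's differences as they are. The 4 other alternatives alter only the genes tested, the variance model or the copies, and leave all differences as they are.

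At an adjusted p below 0.05, R499 minus B16 called 1 of the 10 members (Fscn1), where 0.0621% of all genes were called, and R499 minus B16PD1 called 2 (Fscn1 and Tmsb4x), where 0.071% were called. Both R499 tumors lay above the other 4 for 2 of the 10 members (Fscn1 and Tmsb4x) and for 4.47% of all genes, and below them for 1 member (Actn1) and for 17.8% of all genes. Nothing is read from these counts, since the members were selected on these contrasts. The members called in both contrasts changed with the tumor left out, and so did the number of genes called over the whole fit. Such fits leave 1 tumor in a condition, so their counts are not given. With log2 taken of the tumor's mean TPM, the difference of Tmsb4x against B16 was 0.42 in place of 2.13 and that of Fscn1 was 3.41 in place of 1.45, and no member was called in either contrast. No member was called in either contrast when each tumor's average count of detected genes was added to the model, or with limma without its trend. In these fits, and with log2 of the mean TPM, 0 of the 11264 genes were called in either contrast. With no filter on genes, 0 members were called in R499 minus B16, where 5 of 25215 genes were called. In R499 minus B16PD1 that fit called 1 member (Fscn1) and 14 of 25215 genes. A pseudocount of 10 also left 1 (Fscn1) in R499 minus B16PD1, where 3 of 11264 genes were called.

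Anti-PD1 treatment of B16 tumors is the contrast that the choice of genes did not use. No member was called in B16PD1 minus B16, where limma called 0% of all genes at an adjusted p below 0.05 and 528 genes had an unadjusted p below 0.05. None of the 10 members was among the 528. The adjusted p of the members ran from 0.989 to 0.998 (Benjamini-Hochberg over 11264 genes). Of the differences, 4 were positive and 6 negative, from -0.42 for Actn4 to 0.13 for Tmsb10. Over all genes tested, 53.0% were positive. Fscn1 differed by -0.20 (95% interval -0.61 to 0.21), Tmsb4x by -0.06 (-0.87 to 0.76), Pfn1 by 0.04 (-0.39 to 0.48) and Cfl1 by 0.06 (-0.44 to 0.56). The tumors of the 2 conditions did not overlap for Fscn1 and Ezr, 2 of 10 members, and for 33.3% of all genes. With 2 tumors in a condition the intervals leave room for changes of these sizes, so a difference was not detectable rather than absent.

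**Figure D4:**
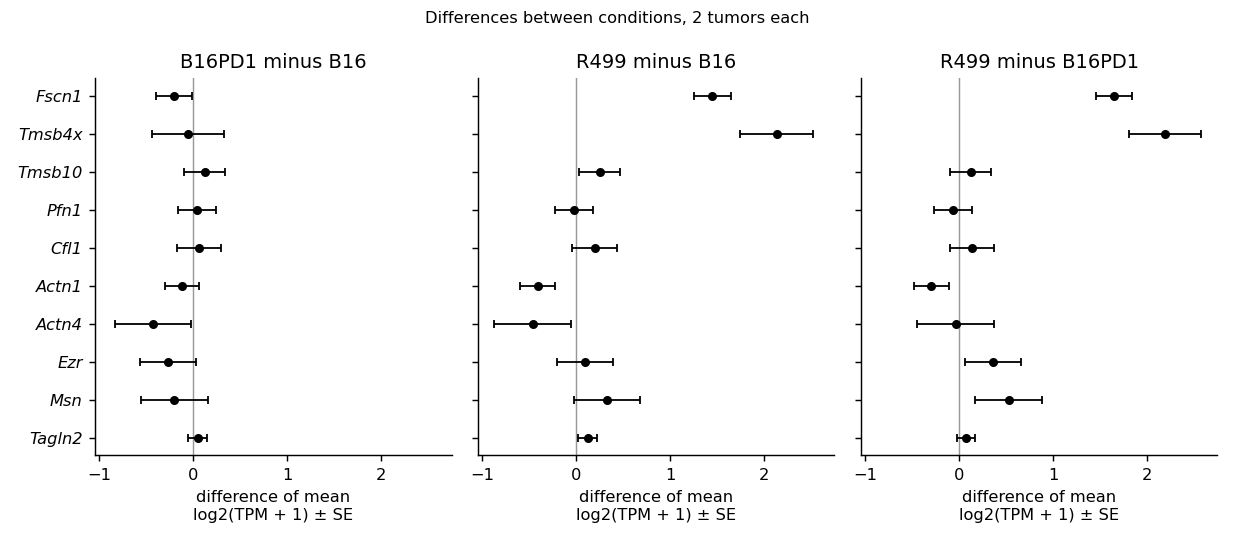
Points show the difference between 2 conditions in mean log2(TPM + 1) for each of the 10 genes, with the SE from limma as bars, in 3 contrasts of 2 tumors each. Fscn1 (1.45 and 1.65) and Tmsb4x (2.13 and 2.19) stand to the right in the R499 contrasts, and in B16PD1 minus B16 the 10 points lie between -0.42 and 0.13.

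Close relatives of the members were looked at next. Fscn2 was above 0 in 1 cell and Fscn3 in 0 of 507 cells, which allows a share of up to 0.592% of cells with a detected transcript and sets no limit on cells whose transcripts were missed. Tmsb15a, Tmsb15b1, Tmsb15b2 and Tmsb15l were above 0 in 0 cells as well. Beside Pfn1, Pfn2 was above 0 in 46.7% of cells (32.9 TPM), Pfn4 in 8 cells and Pfn3 in 0. Beside Cfl1, Cfl2 was above 0 in 88.6% (228 TPM) and destrin, Dstn, in 90.9% (207 TPM). The differences in R499 minus B16 were -0.12 ± 0.31 (SE) for Pfn2, -0.13 ± 0.069 (SE) for Pfn4, 0.27 ± 0.31 (SE) for Cfl2 and 0.38 ± 0.34 (SE) for Dstn, and none passed. Tagln was above 0 in 4 cells and Tagln3 in 0. Actn2 and Actn3 were each above 0 in 3 cells. Radixin, Rdx, the relative of Ezr and Msn, had levels of 2.70 and 3.21 on the log2(TPM + 1) scale in the R499 tumors, 3.78 and 3.91 in the B16 tumors, and 3.34 and 3.99 in the B16PD1 tumors. Both R499 tumors were below the other 4 for Rdx, where the difference from B16 was -0.89 ± 0.35 (SE, adjusted p = 0.383 by limma) and did not pass the test.

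Other genes of the actin system were taken from 13 lists that hold no member, the actins themselves among them. Of their 144 genes in the deposited values, 113 were tested, and limma called 0 of the 113 in each of the 3 contrasts. The median difference over the 113 was -0.03 in R499 minus B16 and -0.03 in R499 minus B16PD1, with 53 and 49 of them positive. Over all genes tested the medians were -0.07 and -0.09, with 35.8% and 32.75% positive. Both R499 tumors lay above the other 4 for 9 of the 113 genes (7.96%) and below them for 14 (12.4%), beside 4.47% and 17.8% of all genes.

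The medians of the 13 lists in R499 minus B16 ran from -0.25 for adhesion site proteins, where 4 of 14 genes were positive, to 0.18 for the Arp2/3 complex, which starts filament branches, where 7 of 9 were. In R499 minus B16PD1 they ran from -0.44 for the list of serum response factor to 0.24 for tropomyosins and nonmuscle myosin II. The first list holds serum response factor (Srf), its cofactors, Cyr61 and Ctgf, and 0 of its 5 tested genes were positive. Their differences were -1.13 for Cyr61, -0.47 for Ctgf, -0.44 for Mkl2, -0.05 for Srf and -0.02 for Mkl1. Against B16, 2 of these 5 were positive. In the second list 7 of 9 genes were positive, and the Arp2/3 complex had 5 of 9. Of the crosslinking and bundling proteins, 1 of 7 was positive in R499 minus B16 and 4 of 7 in R499 minus B16PD1. Over all genes tested, 35.8% were positive in R499 minus B16 and 32.75% in R499 minus B16PD1. The counts of the lists were not tested against these shares.

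The 2 most abundant tested genes of each list, 26 in all, had 13 positive and 13 negative differences in R499 minus B16, with a median of -0.03. Over all genes tested, 35.8% were positive and the median was -0.07. The adjusted p of the 26 genes ran from 0.218 to 0.980 (limma), so none passed. Actb and Actg1, the cytoplasmic actins that the members bind, had means of 5455 and 7207 TPM, were above 0 in every retained cell, and differed by 0.10 ± 0.16 (SE) and 0.03 ± 0.16 (SE). The monomer-binding proteins Twf1 and Cap1 differed by 0.08 and -0.32, and Wdr1, which helps cofilin, by -0.09. Among proteins that join or coat filaments, the differences were -0.18 for the filamin Flna, -0.60 for the plastin Pls3, and -0.14 and 0.42 for the calponins Cnn3 and Cnn2. Cd44, a membrane receptor that ezrin and moesin bind, had 0.04. Of the genes of filament branching, the Arp2/3 subunits Arpc3 and Actr3 had 0.18 and 0.12, cortactin (Cttn) had 0.07, and Cyfip1, a subunit of the WAVE complex that turns on Arp2/3, had -0.72 ± 0.33 (SE).

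At filament ends, the capping proteins Capza2 and Eps8 had differences from B16 of 0.34 ± 0.28 (SE) and -0.13. The myosin light chains Myl6 and Myl12a had 0.55 and 0.13, the adhesion proteins Ilk and Fermt2 had 0.06 and -0.36, and the signaling genes Arhgdib and Rhoa had -0.31 and -0.26. Cyr61 and Ctgf, secreted matrix proteins from the list of serum response factor, had -1.22 ± 0.32 (SE, adjusted p = 0.218 by limma) and -0.30 ± 0.25 (SE, adjusted p = 0.704 by limma). The differences of the remaining list genes reached 1.77 ± 0.42 (SE, adjusted p = 0.189 by limma) for Rhoc and 1.43 ± 0.36 (SE, adjusted p = 0.218 by limma) for the tropomodulin Tmod1, which are named because of their size after their values were seen. For Rhoc the tumor means were 6.34 and 4.90 in R499, 4.05 and 3.66 in B16, and 5.32 and 4.95 in B16PD1, so R499 overlapped B16PD1.

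The genes around Fscn1 and Tmsb4x were read in the same fit. Of 12 tested genes within 500 kb of Fscn1, 3 had a positive difference in R499 minus B16, and the median was -0.07, with a range of -0.67 (Kdelr2, 431 kb away) to 0.17 (Zdhhc4, 343 kb away). Over all genes tested, 35.8% of the differences were positive, with a median of -0.07. Actb lies 53.6 kb from Fscn1. Around Tmsb4x only 2 genes were tested, Prps2 at 0.01 ± 0.29 (SE) and Rpl7a-ps11 at -0.93 ± 0.34 (SE). Over the 368 tested genes of chromosome X, which also carries Msn, the median difference was -0.05 in R499 minus B16, beside -0.07 over all genes.

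Within tumors, correlations between the members from cell to cell were weak on average and varied between tumors. Over the 45 pairs, the mean of the 6 within-tumor Spearman coefficients had a median of 0.039, ran from -0.12 (Tmsb4x and Pfn1) to 0.16 (Tmsb4x and Tagln2), and exceeded 0.2 in 0 pairs. Single tumors ranged more widely, from -0.31 (Pfn1 and Msn) to 0.35 (Tmsb4x and Tmsb10). Given the number of genes detected, the rank partial correlation had a median of 0.018 and ran from -0.11 to 0.16. Fscn1 and Tmsb4x had a coefficient of 0.055, positive in 3 of 6 tumors, and -0.006 as a partial correlation. The thymosins Tmsb4x and Tmsb10 had 0.14, positive in 5 of 6 tumors, and 0.14 as a partial correlation. The cells of a tumor are not replicates and vary in the number of genes detected, and TPM sums to the same total in each cell. These values are therefore descriptions, and in sparse data correlations of this size are weak.

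With the actins Actb and Actg1, 2 of 20 pairs had a mean coefficient above 0.2. Pfn1 and Actb had a mean coefficient of 0.32 (range 0.25 to 0.46) and 0.27 as a partial correlation, and Cfl1 and Actb had 0.25 (0.15 to 0.39) and 0.24, each positive in 6 of 6 tumors. With Actg1, Pfn1 had 0.065 and Cfl1 had 0.14. The 18 pairs at or below 0.2 ran from -0.042 (Fscn1 and Actb) to 0.16 (Actn4 and Actg1). Among 8138 genes above 0 in at least 10% of cells, those most like Fscn1 over cells were Dalrd3 (0.24), Psmb8 (0.24), Fam177a (0.23), Mcl1 (0.22) and Tom1 (0.22), where the 99th percentile over all these genes was 0.17. Those most like Tmsb4x were Dstn (0.27), the destrin of the cofilin family, Fam92a (0.26), Lgals3 (0.24), Mrps33 (0.24) and Psme2b (0.24), with a 99th percentile of 0.18. With Fscn1, single tumors gave 0.036 to 0.64 for Psmb8 and 0.17 to 0.30 for Fam177a, so the ranking varied between tumors. The number of genes detected was not taken into account in this ranking. Its own mean coefficient was 0.27 with Fscn1 and 0.22 with Tmsb4x. The median over the 8138 genes was 0.067 with Fscn1 and 0.054 with Tmsb4x.

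**Figure D5:**
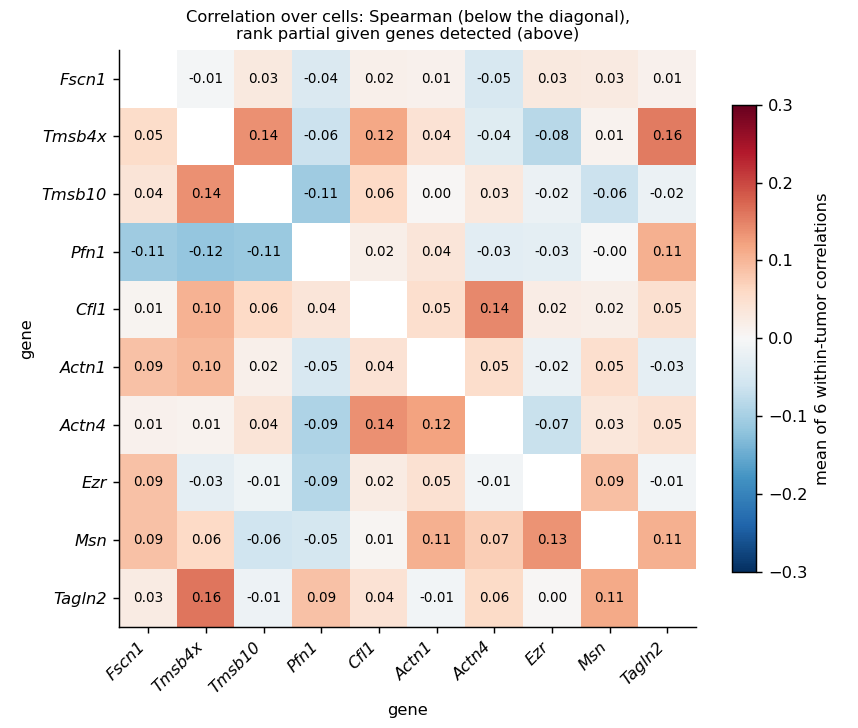
Each square is the mean over 6 tumors of a correlation between 2 of the 10 genes across the cells of a tumor; the Spearman coefficient is below the diagonal and the rank partial correlation given the number of genes detected is above it. No pair exceeds 0.2 on either side, and the highest value is 0.16 for Tmsb4x with Tagln2.

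R499 cells with and without Fscn1 were compared for lineage genes. Of the 54 cells above 0, 54 had all of Mlana, Pmel, Dct and Tyrp1, genes of the melanosome, above 0, as had 100 of the 102 cells at 0 (98.0%). The mean log2(TPM + 1) over the melanocyte lineage markers was 9.43 ± 0.54 (SD over 54 cells) and 8.97 ± 0.86 (SD over 102 cells). The cells above 0 had more genes detected, with a median of 4208 against 2785.5. Given the number of genes detected, the partial correlation of Fscn1 with this lineage score was -0.020 in R499_015 and 0.0996 in R499_016, where the Spearman coefficient was 0.12 and 0.30, and over the 6 tumors the means were 0.0013 and 0.098. Markers of other cell types were also counted in these 54 and 102 cells. Any immune marker was above 0 in 11 and 12 cells, any endothelial marker in 14 and 14, any fibroblast marker in 5 and 4, any mural marker in 4 and 6, any dendritic marker in 4 and 2, and keratinocyte markers in 0 and 0. Zbtb46 is the only dendritic marker detected in the data. The part of the number of genes detected in these marker counts was not tested.

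Tmsb4x was above 0 in 44 of the 54 Fscn1-positive R499 cells (81.5%, Wilson interval 69.2% to 89.6%) and in 58 of the 102 Fscn1-negative ones (56.9%, 47.2% to 66.1%). The shares were 82.1% and 60.4% in R499_015 and 80.8% and 53.1% in R499_016. Across the cells of R499_015 and R499_016 the Spearman coefficient of Fscn1 and Tmsb4x was 0.12 and 0.18, and the partial correlation given the number of genes detected was 0.12 and 0.10.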

How the data were processed

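Single cells of 6 tumors were analysed from 1 table of TPM values. Per the labels and the study's methods, the authors aligned reads with STAR to mm10, quantified genes with RSEM, and deposited TPM values, without a filter, for 25215 genes and 602 cells; the submitters' processing notes also name GATK, and versions and the annotation are not given in the sources used here. Each column names a condition and a tumor number but no replicate number, so tumors were placed in conditions by name. All columns were used. TPM summed to between 999999.44 and 1000000.59 per cell, so depth in reads is unknown. The study's minimum of mapped reads was not applied, since TPM holds no counts, and doublets were not called.

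Cells with more than 1000 genes above 0 and less than 10% mitochondrial TPM were retained (507), and genes above 0 in more than 5 of them (11264). Log2(TPM + 1), with a pseudocount of 1, which understates changes of low genes, was averaged over the cells of a tumor. All 6 tumors entered a single limma 3.58.1 model with 3 contrasts (eBayes with trend, two-sided, Benjamini-Hochberg) in R 4.3.3. The SEs and p-values rest on the spread between tumors within all 3 conditions, drawn toward a trend over all genes. For Fscn1 in B16PD1 minus B16 the SE was 0.19, and it was 0.11 with the trend left out. Other steps used Python 3.11.15 with scipy 1.17.1, and blastn 2.17.0 (at least 90% identity over 80% of the length) for copies. Steps were tested on simulated data. Positions are from GENCODE vM21 and promoters from RefSeq.

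The members and the gene lists were chosen with earlier results of these data known. The genes named are the 10 members, their family, of each list those past the threshold and the 2 most abundant, and the 5 genes most like Fscn1 and Tmsb4x over cells; 1 further gene of the rule is not reported here. Genes within 500 kb were added after seeing the data.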

Additional observations from a re-analysis of the deposited data

How the results depend on the processing

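The differences of Fscn1 and Tmsb4x in both R499 contrasts were positive under the 15 alternatives that could change a difference in at least 1 contrast. For Fscn1 they ran from 0.72 to 3.41 against B16 and from 0.80 to 3.96 against B16PD1. For Tmsb4x they ran from 0.42 to 3.03 against B16 and from 1.0005 to 3.04 against B16PD1. A left-out tumor of the condition outside a contrast could not move that contrast's differences. The number of members called in R499 minus B16 was 1 in the analysis reported, where 7 of 11264 genes were called. It was 2 with a pseudocount of 0.1, where 11 of 11264 genes were called. It was also 2 with genes above 0 in at least 10% of cells (20 of 8139 genes called). The same held with no filter on cells (22 of 11480) and with the stricter filter on cells (21 of 10917). It held with each cell's mean subtracted (28 of 11264), with weighted cells (11 of 11264), and without the cells with immune markers (8 of 11187). It was 0 with log2 of the mean TPM, with no filter on genes, with the count of genes detected added to the model, and with the trend left out of limma. In R499 minus B16PD1 the number of members called was 2 in the analysis reported, where 8 of 11264 genes were called. It was 1 with a pseudocount of 10 (3 of 11264 genes called) or no filter on genes (14 of 25215). With log2 of the mean TPM, the covariate, or no trend, 0 members and 0 of 11264 genes were called. The members called also changed with the tumor left out, where a condition had 1 tumor, so those counts are not given. The cause was not tested, and the counts in both R499 contrasts are no test of members that were selected on them. In B16PD1 minus B16, 0 members were called under the alternatives that kept all tumors. Over all genes, 13 of 25215 were called there with no filter on genes, and 0 under the others of these. With a tumor left out the number over all genes could change, and those counts are not given. Of the list genes, 1 (Rhoc, named after its value was seen) was called in R499 minus B16 with each cell's mean subtracted, where 28 of 11264 genes were called. The list genes called also changed without R499_016. Subtracting each cell's mean raised all differences by 0.10 in R499 minus B16 and by 0.14 in R499 minus B16PD1.

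In B16PD1 minus B16, where no difference passed, signs turned with the stricter filter on cells for Tmsb10 (-0.052), Actn1 (0.053) and Msn (0.12), with the covariate for Actn1 (0.033), with log2 of the mean TPM for Pfn1 (-0.019) and Tagln2 (-0.12), and without cells with immune markers for Tmsb4x (0.0088). With a tumor left out, the ranges were -0.50 to 0.39 for Tmsb4x, -0.020 to 0.27 for Tmsb10, -0.10 to 0.18 for Pfn1, -0.052 to 0.17 for Cfl1, -0.27 to 0.034 for Actn1, -0.88 to 0.027 for Actn4, -0.43 to 0.035 for Msn and -0.055 to 0.16 for Tagln2. A lone tumor was then assumed to vary like the other conditions. Of 180 shares of cells recomputed at TPM above 10, with no filter on cells, or without cells with immune markers, 173 stayed within their intervals. Adding the copies could change no value, since the 1 copy with a row was at 0. No paired analysis was possible because the columns carry no replicate numbers. With 2 tumors a condition and unknown read depth, small differences could not be seen.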
